A study of Mus musculus with 4 samples.

Results

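Potassium channel genes were taken as the protein-coding autosomal genes of the mouse whose symbol starts with Kcn, other than the noncoding Kcnq1ot1, and 92 of 21627 protein-coding genes met this rule. DNA methylation of these genes was measured by whole-genome bisulfite sequencing of male germ cells from 21-day-old testes. The samples were 2 knockouts (Np95fl/fl:Stra8-Cre), in which a recombinase driven by the premeiotic germ cell promoter of Stra8 acts on a floxed Np95 gene, and 2 controls (Np95fl/fl), which carry the same floxed gene without the recombinase. Np95, also named Uhrf1, brings the maintenance methyltransferase Dnmt1 to newly copied DNA. The suspension was made from hand-picked seminiferous tubules and cleared of interstitial cells with a mesh, and no sort is named, so cells outside the reach of Stra8-Cre may be in every sample. Whether replicates are different animals is not stated, and p-values therefore reflect the spread of 4 libraries that may differ only technically. Regions of these genes were selected on the number of CpGs with a value in all samples, and methylation levels were not used. The members comprised 39 voltage-gated pore-forming genes, 15 inward rectifiers (Kcnj), 14 two-pore genes (Kcnk), 8 genes of channels gated by calcium or sodium or related to them (Kcnma, Kcnn, Kcnt, Kcnu) and 16 auxiliary genes (Kcnab, Kcne, Kcnip, Kcnmb and Kcnrg).

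Potassium channels let potassium cross the cell membrane and set its resting potential. Voltage-gated members open on depolarisation, inward rectifiers and two-pore channels carry resting currents, and auxiliary subunits change gating and trafficking of the pores. In the male germ line the best known member is Kcnu1, the pore of the sperm-specific potassium channel, with Lrrc52 as its partner subunit. In most mammalian cells CpG-rich gene starts are free of methylation, and gene bodies and CpG-poor gene starts carry it.

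The bases just before 5 gene starts are printed first, because they span the patterns described below: starts methylated in controls (Kcne3, Kcne4), a second start of the same gene that was not (Kcne3), and starts with low levels whose surroundings were higher in knockouts (Kcnk18, Kcns1). Each sequence is the 250 bases before a start site in RefSeq's table for GRCm38.p6 (mm10), 5′ to 3′ on the strand of the gene, with every CG in capitals. Kcne3 start 1 lies at chr7:100176420-100176669 and start 2 at chr7:100178433-100178682 (both plus strand), Kcne4 at chr1:78816661-78816910 (plus), Kcnk18 at chr19:59219398-59219647 (plus) and Kcns1 at chr2:164171114-164171363 (minus).
Kcne3 start 1: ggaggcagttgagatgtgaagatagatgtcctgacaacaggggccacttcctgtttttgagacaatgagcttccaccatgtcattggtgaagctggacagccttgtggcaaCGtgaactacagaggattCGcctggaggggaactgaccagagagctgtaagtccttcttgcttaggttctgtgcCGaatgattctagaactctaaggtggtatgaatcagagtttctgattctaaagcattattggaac
Kcne3 start 2: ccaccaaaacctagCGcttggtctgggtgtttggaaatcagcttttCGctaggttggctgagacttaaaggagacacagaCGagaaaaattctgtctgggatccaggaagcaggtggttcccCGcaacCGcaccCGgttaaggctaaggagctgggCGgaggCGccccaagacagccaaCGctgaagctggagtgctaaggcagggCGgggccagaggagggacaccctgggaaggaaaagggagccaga
Kcne4: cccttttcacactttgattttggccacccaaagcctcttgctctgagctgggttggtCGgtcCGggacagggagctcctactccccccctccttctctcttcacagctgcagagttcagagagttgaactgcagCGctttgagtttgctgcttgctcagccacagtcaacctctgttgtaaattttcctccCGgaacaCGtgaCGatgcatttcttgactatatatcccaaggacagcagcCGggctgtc
Kcnk18: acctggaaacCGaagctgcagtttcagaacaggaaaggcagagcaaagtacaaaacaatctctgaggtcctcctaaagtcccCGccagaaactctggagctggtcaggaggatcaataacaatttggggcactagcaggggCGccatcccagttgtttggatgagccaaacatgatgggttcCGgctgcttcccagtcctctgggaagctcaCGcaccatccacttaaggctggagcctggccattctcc
Kcns1: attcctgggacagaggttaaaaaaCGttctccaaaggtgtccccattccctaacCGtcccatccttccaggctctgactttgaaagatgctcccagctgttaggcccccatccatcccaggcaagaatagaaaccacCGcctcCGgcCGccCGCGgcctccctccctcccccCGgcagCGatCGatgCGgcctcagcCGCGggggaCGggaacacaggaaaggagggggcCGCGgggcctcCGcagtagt

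These stretches hold 3 CGs at Kcne3 start 1, 10 at Kcne3 start 2, 7 at Kcne4, 5 at Kcnk18 and 17 at Kcns1. Over the cytosines of Kcne3 start 1 the mean methylation level was 48.5% and 35.6% in the knockouts, against 93.7% and 94.0% in the controls. Kcne3 start 2, which lies 2176 bp inside the gene, had 0.947% and 0.929% in the knockouts, against 1.70% and 0.551% in the controls. Within Kcne3 the CG-poor start was thus methylated and lower in both knockouts, while the CG-richer start was near 0 in all 4 samples. The stretch before Kcne4, an auxiliary subunit that inhibits some voltage-gated pores, had 34.4% and 34.0% in the knockouts, against 67.9% and 80.8% in the controls. The stretch before Kcnk18, a two-pore gene known from sensory neurons, had 11.8% and 15.4% in the knockouts, against 7.59% and 5.63% in the controls. At Kcns1, a voltage-gated family member that forms no channel alone and modifies others, the values were 1.73% and 1.96% in the knockouts, against 1.68% and 1.501% in the controls. The groups did not overlap at Kcnk18 or Kcns1, but the Kcns1 difference was small. The motif CG was present in 96.8% of the 93 stretches before member start sites (median 7 CGs), against 92.1% of all 32851 stretches (median 6). The letters TGACGTCA, the palindromic site of cyclic-AMP response factors, which contains a CG and reads the same on both strands, were in none of the member stretches and in 1.55% of all.

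The table holds 37230584 cytosines of CpGs, of which 22421484 had a value in all 4 samples and were used. Between 28999710 and 29774194 cytosines had a value in each sample, and the number of reads behind each value is unknown, so no counting interval was computed. The genome-wide mean was 38.1% and 38.4% in the knockouts, against 69.1% and 72.9% in the controls. Methylation values do not show the deletion of Np95 itself, so the labels were not checked at the targeted gene. Germ cell genes were low at their start ends in controls, from 4.09% at Mael to 12.4% at Ddx4, and in the knockouts they lay between 12.3% and 17.5%. Dazl, Sycp1 and Sycp3 were called higher in knockouts. Sertoli genes (Sox9, Amh, Wt1) were at 0.891% to 2.17% in knockouts and 0.936% to 1.46% in controls, low in both groups. The Leydig gene Hsd3b1 averaged 48.8% in knockouts and 94.3% in controls, and the blood gene Ptprc 42.8% in knockouts and 85.3% in controls. These are methylation levels, not expression, and whether the mix of cells differed between groups was not tested.

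The bodies of potassium channel genes lost methylation in knockouts throughout the family. A body was the gene without 2000 bp at each end, and its level was the mean over its cytosines. Of the 92 members, 85 had at least 10 measured CpGs in the body. Kcne4, Kcna3, Kcna5, Kcnj11 and Kcnk7 had no body left after trimming, Kcnk15 had 7 CpGs and Kcnrg none, while Kcnf1, with 10, was the member just inside the minimum. Over the 85 bodies the median level was 40.2% and 40.7% in the knockouts, against 76.4% and 81.4% in the controls. Both knockouts lay below both controls in 85 of 85 bodies, compared with 99.0% of all bodies. Limma was run on the log2 odds of methylation over all 15776 bodies. A region counted as called where its adjusted p (Benjamini-Hochberg) was below 0.05 and its group means lay 10 or more percentage points apart. By this measure 80 of 85 member bodies were lower and 0 higher. Among all bodies 96.9% were called lower and 0.0127% higher, so the members' share was near the background. At an unadjusted p under 0.05, 0 member bodies were higher, against 42 of 15640 over all autosomal genes. The median change of all bodies was -2.81 in log2 odds. Once every sample had been centred on its median, 0 member bodies were called lower and 18 higher, against 56 and 2098 of all 15776 bodies. These calls are relative to that shift.

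The median difference of the member bodies was -36.9 points, against -37.8 points over all autosomal genes, whose median level was 46.0% in knockouts and 86.9% in controls. The members therefore started from a lower control level, with a median of 78.4%. The median share of the control level that remained was 53.0%, between 38.6% at Kcnj8 and 82.0% at Kcnf1, against a median of 55.6% over all autosomal bodies. Control replicate 2 was above control replicate 1 in 85 of 85 bodies, as in the genome-wide means, while the knockouts were close to each other. The plot of body levels shows the members along the band of all genes.

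**Figure D1:**
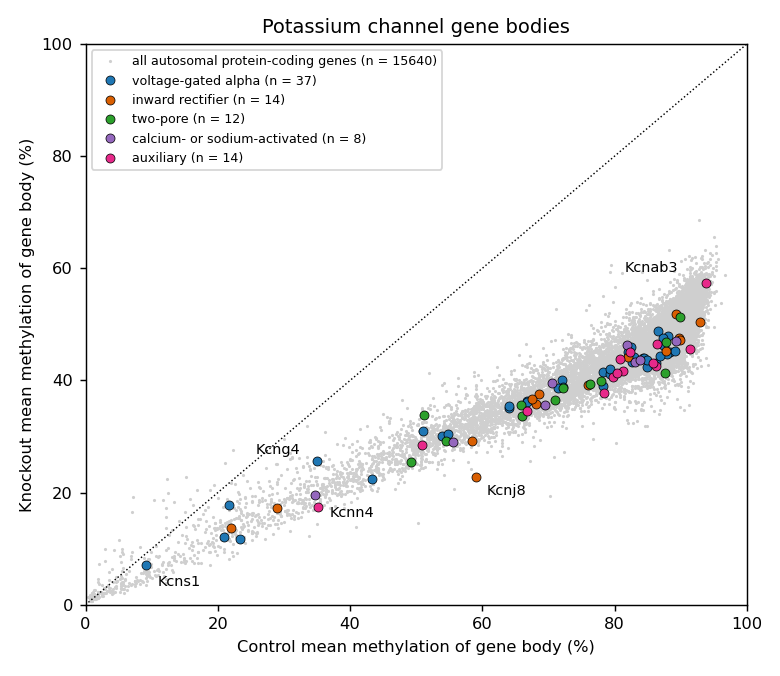
Mean methylation of each gene body in knockouts (vertical axis, %) against controls (horizontal axis, %), each the mean of 2 samples, with 85 potassium channel genes coloured by family over 15640 autosomal genes in grey; the dotted line marks equal levels. All 85 members lie below the line, with Kcns1, Kcng4 and Kcnn4 at low control levels, Kcnj8 below the band and Kcnab3 at the top.

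Among the families, 33 of 37 measured voltage-gated bodies, 13 of 14 inward rectifiers, 12 of 12 two-pore genes, 8 of 8 calcium- or sodium-activated genes and 14 of 14 auxiliary genes were called lower. Their median differences lay between -39.1 points in auxiliary and -33.97 points in two-pore genes, with -37.0 in voltage-gated, -36.5 in inward rectifier and -34.7 points in calcium- or sodium-activated genes. The family medians were thus within a few points of each other, and no test was run between families. Longer members had higher levels: bodies of genes of 200000 bp or more (18 genes) had medians of 43.4% in knockouts and 83.2% in controls, genes of 50000 to 200000 bp (20 genes) 40.5% and 77.3%, and genes under 50000 bp (47 genes) 35.8% and 66.8%. Across the 85 genes the control level went with fewer listed CpGs per kb (Pearson r = -0.63, Spearman rho = -0.43), and the difference followed the control level closely (r = -0.97, rho = -0.92). These are descriptions across genes that share the same 4 samples, and the second is in part built in, since the difference contains the control level.

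Of the voltage-gated genes, Kcnh5, a pore of the ether-à-go-go group, had one of the largest body losses, with 44.7% and 45.4% in the knockouts, against 86.1% and 90.5% in the controls (-43.3 points). The groups were far apart and the knockouts close to each other. Kcnq5, a pore of the neuronal M-current and 1 of the 3 longest members, had 42.4% and 41.6% in the knockouts, against 76.9% and 81.6% in the controls. Kcnq1, a cardiac and epithelial pore whose gene hosts the imprinted noncoding RNA Kcnq1ot1, had 45.9% and 46.0% in the knockouts, against 80.5% and 84.3% in the controls (-36.5 points).

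Low bodies were found in short voltage-gated genes. The 5 bodies that were not called were those with a loss under 10 points, and the groups did not overlap in any of them. Kcna1, a delayed rectifier of axons, had 11.9% and 12.1% in the knockouts, against 20.1% and 21.8% in the controls. Kcns1 had 7.59% and 6.66% in the knockouts and 8.66% and 9.74% in the controls, the lowest control level of all member bodies. Kcnf1, like Kcns1 a subunit that forms no channel alone, had 17.2% and 18.3% in the knockouts, against 20.04% and 23.3% in the controls. Each of these bodies is short or rich in CpGs: Kcns1 listed 44.9 CpGs per kb over the trimmed body at chr2:164165619-164169113.

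Kcng4, also a modifying subunit, had 26.3% and 24.9% in its body in the knockouts, against 34.1% and 35.9% in the controls (-9.42 points). Without control replicate 1 its difference was -10.3 points and without knockout replicate 1 it was -10.1 points, and the body was then called. Its value also followed the trimming, with -16.9 points untrimmed and -40.1 points when 5000 bp were removed at each end, both called. The inward rectifier Kcnj9, a subunit of G-protein-gated channels, had 13.8% and 13.5% in the knockouts, against 21.4% and 22.7% in the controls (-8.43 points), and was called at -17.3 points without trimming. The remaining inward rectifier bodies were called, with Kcnj8, the vascular ATP-sensitive pore, keeping the smallest share of any member. It had 23.0% and 22.6% in the knockouts, against 55.7% and 62.3% in the controls, but without trimming its difference was -3.61 points and it was not called. Kcnj8 has 17 measured CpGs in its body and was named after its values were seen.

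Of the two-pore genes, Kcnk16, a channel known from pancreatic islets, had the largest body loss of all members. Its levels were 39.3% and 43.2% in the knockouts, against 83.1% and 92.1% in the controls, a difference of -46.3 points (log2 odds -3.31 ± 0.35, SE; adjusted p = 2.3e-20 by limma, n = 2 per group). Kcnk3, an acid-sensitive background channel, had 33.1% and 34.4% in the knockouts and 64.0% and 68.0% in the controls (-32.3 points). Kcnk9, its close relative and an imprinted gene in brain, had 30.3% and 28.2% in the knockouts, against 53.1% and 56.0% in the controls (-25.3 points). The replicates of Kcnk3 and Kcnk9 differed by a few points within a group, and the groups did not overlap.

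Kcnma1, the pore of the large-conductance calcium-activated channel, spans 712823 bp and kept 52.7% of its control level. Its trimmed body at chr14:23294288-24003110 had 47.0% and 47.1% in the knockouts, against 86.9% and 91.7% in the controls (-42.3 points). Kcnn4, the intermediate-conductance calcium-activated channel of blood and epithelial cells, had 20.3% and 18.7% in the knockouts, against 33.3% and 36.1% in the controls (-15.2 points), and with 5000 bp trimmed its difference was -5.91 points and not called. Kcnu1, the sperm channel, had 39.4% and 39.7% in the knockouts, against 69.3% and 71.9% in the controls (-31.1 points). The body of the germ line member thus lost methylation as the others did, with a retained share of 56.0%.

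Among auxiliary genes, Kcnmb1, the smooth-muscle beta subunit of the large-conductance channel, had 47.2% and 44.1% in the knockouts and 90.1% and 92.7% in the controls (-45.8 points). Kcne2, a small single-pass subunit of cardiac and gastric channels, had 41.4% and 43.7% in the knockouts, against 81.3% and 91.3% in the controls (-43.7 points). The 2 control values of Kcne2 were 10 points apart, on 14 measured CpGs, and both knockouts were far below them. Kcnip4, a calcium-binding partner of voltage-gated pores and the longest member with 1135620 bp, had 41.2% and 41.5% in the knockouts, against 77.7% and 83.1% in the controls. Kcnip1, of the same group, had 40.2% and 40.8% in the knockouts, against 77.2% and 82.3% in the controls. Kcnip1 and Kcnmb1 overlap in the genome and share 9 of the 1-kb windows used below. In all, 42 members overlap some other annotated gene and 10 of them a protein-coding one.

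Gene ends behaved differently from bodies at the start and alike at the other side. An end took in 1000 bp beyond the gene and its first or last 500 bp and needed 5 measured CpGs, which 170 of 184 ends in 91 members had. Kcnj3 had neither end measured. The last to enter were an end each of Kcne3, Kcnj13 and Kcnj15 with 5 CpGs, and an end each of Kcnab1, Kcnc2 and Kcnq5 missed with 4. Limma called 99 of 170 ends lower and 0 higher, against 57.3% and 0.16% of all 34911 ends, so these shares were near the background too. Both knockouts lay below both controls at 134 of 170 ends, against 75.7% of all ends. With each end tested on its own spread alone, 28 ends were called lower, against 7764 of all 34911 ends. At an unadjusted p under 0.05 there were 4 higher ends, against 931 of 34720 over all autosomal genes. With 1 library left out, the differences at an end of Kcnk18 and at an end of Kcnu1 rose above 10 points at least once, as given below.

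The start end, the outer end of the gene on the start side, was placed by RefSeq's strand in 66 genes and, in 19 genes without one, as the end with the more listed CpGs, where the counts differed by a factor of 2 or more. Of the 85 start ends, 60 were under 20% in controls, with medians of 2.38% and 2.37% in the knockouts, against 2.70% and 2.63% in the controls, and limma called 0 of these changed. At an unadjusted p under 0.05, 22 of the 60 were lower and 3 higher. Over all autosomal genes, 736 of 17124 start ends of any control level were higher at this p. In either direction, 49 of 85 member start ends of any control level passed it, against 8104 of 17124. The share for low start ends alone over all genes is not given here, so the 22 of 60 have no like background. The 18 start ends at 50% or more in controls had medians of 38.2% and 40.1% in the knockouts, against 79.6% and 84.8% in the controls, and all 18 were called lower, as were 3855 of 3861 such start ends over all autosomal genes. Of the 7 between these levels, 5 were called lower, against 546 of 825 over all autosomal genes. In total 23 of 85 start ends were called lower, against 25.6% of all start ends, and 0 were called higher, against 0.272%. The methylated start ends listed a median of 18 CpGs and the low ones 60.5. The 19 start ends placed by their listed CpGs were all under 20% in controls, so this contrast is in part set by the rule.

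Methylated start ends were found in every family. They were 5 of 15 in auxiliary genes, 4 of 13 in inward rectifiers and 4 of 13 in two-pore genes. The shares were smaller in voltage-gated genes (4 of 37) and calcium- or sodium-activated genes (1 of 7), and no test was run between families. Over all autosomal genes, 22.5% of start ends were at 50% or more in controls, against 21.2% in the members. The start ends placed by listed CpGs were all low and most belong to voltage-gated genes, so the family shares depend in part on that rule. Some outer ends counted here are not shown to be starts, as given below. Kcne3, an auxiliary subunit of epithelial Kcnq1 channels, had 52.8% and 40.1% at its start end in the knockouts, against 92.2% and 93.8% in the controls. The start of Kcne2 had 35.6% and 40.04% in the knockouts, against 87.0% and 92.6% in the controls, a difference of -52.0 points (log2 odds -3.77 ± 0.46, SE; adjusted p = 1.5e-07 by limma, n = 2 per group). Both starts were highly methylated in controls. The trimmed body of Kcne3 was lower than its start, with 17.0% and 18.0% in the knockouts, against 33.0% and 37.3% in the controls. Kcna10, a voltage-gated gene known from kidney and inner ear, had 45.1% and 57.8% in the knockouts and 91.3% and 91.6% in the controls. Kcng4 had 28.4% and 39.2% in the knockouts, against 81.0% and 86.7% in the controls, so that its start was methylated while its body was low.

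The two-pore genes Kcnk16, Kcnk7 and Kcnk2 also had methylated start ends. Kcnk16 had 43.9% and 45.9% in the knockouts, against 86.8% and 91.0% in the controls. Kcnk7, a family member not known to conduct by itself, had 50.6% and 53.0% in the knockouts and 85.3% and 92.5% in the controls. Kcnk7 overlaps the protein-coding gene Ehbp1l1. Kcnk2, a mechanically gated background channel, had 39.7% and 42.1% in the knockouts and 86.6% and 84.7% in the controls. The renal inward rectifier Kcnj1 had 43.0% and 49.3% at its outer end in the knockouts, against 85.2% and 92.2% in the controls. Its only listed start site lies 21567 bp inside, with 2 measured cytosines, so this outer end is not shown to be a start. In none of these genes did the groups overlap, as the plot of start ends shows.

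**Figure D2:**
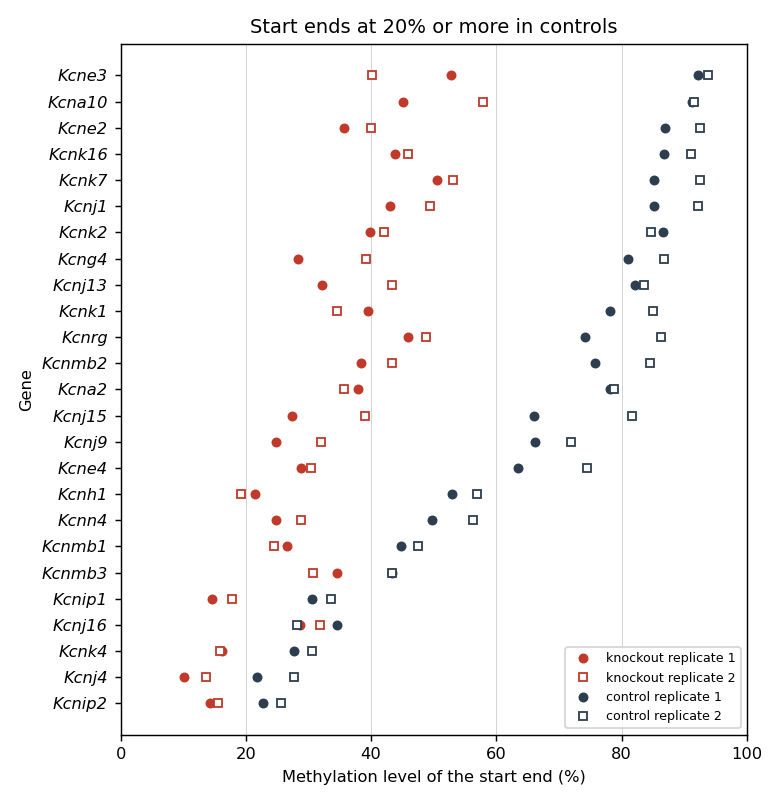
Methylation level (%) of the start ends of the 25 members at 20% or more in controls, with both knockout (red) and both control (dark) samples as points and filled circles for replicate 1 and open squares for replicate 2. The knockouts lie left of the controls in every gene except Kcnj16, where 28.7% and 31.9% in the knockouts overlap 34.6% and 28.2% in the controls.

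In 5 of the 18 genes with a methylated start end, RefSeq's table holds a start more than 1000 bp inside the gene that was under 20% in controls. In Kcne3 and Kcnk2 it is listed besides an outer start, and in Kcna2, Kcnh1 and Kcnk1 it is the only start listed, so that the methylated outer end of these genes is not shown to be a start. They were chosen after their values were seen. In Kcnk2 the level over 300 bases at the outer start was 33.6% and 33.5% in the knockouts, against 83.6% and 83.2% in the controls, while a start 59429 bp inside had 0.808% and 1.29% in the knockouts and 0.660% and 1.12% in the controls. The single listed start of Kcna2, a partner of Kcna1 in axons, lies 10684 bp inside and had 1.24% and 0.824% in the knockouts, against 1.04% and 1.02% in the controls. In Kcne3, whose sequences are given above, and in Kcnk2 the loss was at the outer start and not at the inner one.

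Over all 93 start sites in the table, from 68 members, 83 had at least 4 measured cytosines in the 300 bases around them (250 before and 50 from the start on). Of these 66 were under 20% in controls, with medians of 1.16% in knockouts and 1.23% in controls, and 14 were at 50% or more, with medians of 37.2% in knockouts and 85.3% in controls. The first group held a median of 16.5 CGs and the second 5. Only 3 sites lay between. Of 31 such sites more than 1000 bp inside a gene, 25 were under 20% in controls. Some neighbouring sites, as in Kcnc2, share cytosines. Among the sites under 20% in controls, the largest gain was at an inner start of Kcnj6, on 4 measured cytosines. It had 42.3% and 15.0% in the knockouts, against 10.9% and 7.98% in the controls, and was named after its values were seen.

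A few start ends were higher in knockouts, by less than the 10 points needed for a call. Both knockouts lay above both controls at 10 of 170 ends, against 5.78% of all ends, with differences of 0.208 to 8.97 points. Without a minimum difference, 4 of 170 ends had an adjusted p under 0.05 in this direction, against 2.36% of all ends. They were the starts of Kcnk18, Kcns1 and Kcnip4 and the far end of Kcnk4, and were named after their values were seen.

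The start end of Kcnk18, at chr19:59218648-59220147, had 18.9% and 14.2% in the knockouts, against 9.56% and 6.72% in the controls, a difference of 8.39 points (log2 odds 1.08 ± 0.25, SE; adjusted p = 0.00023 by limma, n = 2 per group). Without knockout replicate 2 the difference was 10.7 points and the end was called. Both knockouts exceeded both controls in each 500-bp bin from 1000 bp before the start to 500 bp inside. Farther inside, between 1000 and 1500 bp, Kcnk18 had 36.4% and 41.4% in the knockouts, against 80.1% and 89.3% in the controls. The gene thus held both a small gain around its start and the usual loss beyond it.

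Kcns1 had 7.29% and 6.005% at its start end in the knockouts, against 1.33% and 1.35% in the controls (5.31 points; log2 odds 1.78 ± 0.20, SE; adjusted p = 9.9e-08 by limma, n = 2 per group). The difference came from 500 to 1000 bp before the start, where 22 cytosines had 23.9% and 19.2% in the knockouts, against 1.53% and 1.99% in the controls. Within 500 bp before the start the values were 1.80% and 2.04% in the knockouts and 1.49% and 1.33% in the controls, so the stretch printed above was almost free of methylation in all samples. Kcnip4 (3.56% and 2.90% in the knockouts, 1.73% and 2.08% in the controls) and the far end of the two-pore gene Kcnk4 (2.66% and 2.01%, against 1.68% and 1.19%) differed by 1.32 and 0.899 points. These shifts are far smaller than the losses at methylated starts.

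Kcnu1 has no start site in the RefSeq table used, so its ends were not told apart. The end at the lower coordinate, chr8:25847627-25849126, had 20.8% and 10.7% in the knockouts, against 9.15% and 4.41% in the controls, and the other end had 41.2% and 43.3% in the knockouts, against 84.6% and 93.1% in the controls. The first difference, 8.97 points, did not pass the test (adjusted p = 0.09 by limma), although the groups did not overlap. It was 11.3 points without control replicate 1 and 14.0 points without knockout replicate 2, and was called in both cases.

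**Figure D3:**
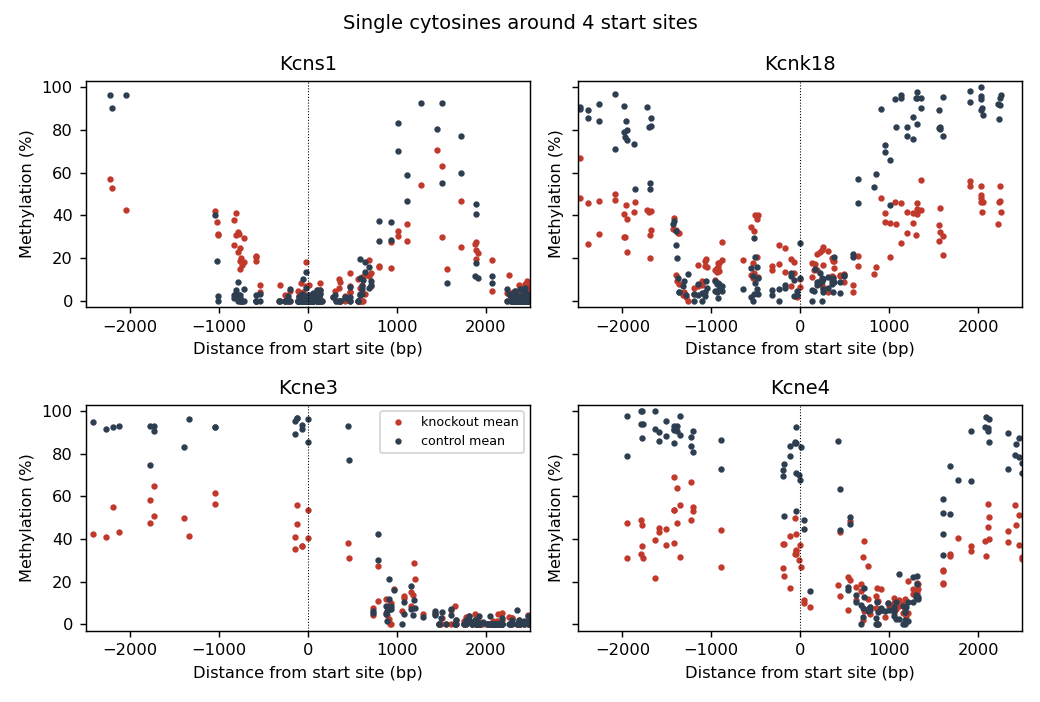
Methylation (%) of single cytosines within 2500 bp of a start site in Kcns1, Kcnk18, Kcne3 (outer start) and Kcne4, as the knockout mean (red) and the control mean (dark) of 2 samples; positive distances run into the gene. Red points lie above dark ones 500 to 1000 bp before Kcns1 and around Kcnk18, and below them wherever controls are high.

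The other named start ends were low and not called. Kcnma1 had 1.78% and 1.86% at its start in the knockouts, against 2.35% and 2.38% in the controls. Kcnk3 had 2.55% and 2.32% in the knockouts and 2.68% and 2.92% in the controls, and Kcnk9 had 1.16% and 1.37% in the knockouts and 1.23% and 1.27% in the controls. Kcnq1 had 6.72% and 6.65% in the knockouts, against 9.36% and 9.67% in the controls. Kcnj11, the pancreatic ATP-sensitive pore, had 8.001% and 8.25% in the knockouts, against 12.8% and 13.0% in the controls (-4.78 points), and was called at -11.3 points when the end reached 2000 bp outside the gene. For Kcna1 the values were 2.71% and 2.56% in the knockouts, against 2.82% and 2.62% in the controls, with overlapping groups.

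Other start ends were called on smaller losses. Kcnn4, the lowest in controls of the 18 start ends at 50% or more, had 24.8% and 28.8% at its start in the knockouts, against 49.7% and 56.3% in the controls (-26.2 points). Kcnip1 had 14.6% and 17.8% in the knockouts, against 30.6% and 33.6% in the controls (-15.9 points), and only -6.34 points, not called, with an end of 500 bp outside the gene. Kcnmb3, a beta subunit gene named after its values were seen, had 34.5% and 30.8% in the knockouts, against 43.4% and 43.3% in the controls. It lost its call without any one of the 4 samples (-12.6 to -8.85 points) and with the shorter end (-5.80 points). Kcnj4, a brain inward rectifier named for the same reason, had 10.2% and 13.6% in the knockouts and 21.8% and 27.7% in the controls, and lost its call without control replicate 2 (-9.89 points) and with an end of 500 bp outside the gene (-3.83 points). Its only listed start site, 7270 bp inside, had 1.07% and 0.811% in the knockouts and 1.16% and 0.950% in the controls.

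At far ends the members were highly methylated in controls and lost methylation like bodies. Of 75 far ends, 70 were called lower and 0 higher, against 90.9% and 0.046% of all far ends, with medians of 44.1% and 44.6% in the knockouts, against 85.8% and 92.4% in the controls. At an unadjusted p under 0.05 there was 1 higher far end, against 133 of 15183 over all autosomal genes. The largest loss was at Kcnk18, whose far end had 38.7% and 37.2% in the knockouts, against 86.3% and 92.2% in the controls (-51.2 points). Kcnk6, another two-pore gene, had 47.2% and 41.6% in the knockouts, against 92.1% and 97.2% in the controls. Kcnj11 had 37.4% and 39.9% in the knockouts and 85.9% and 91.8% in the controls, and Kcnk9 38.2% and 41.3% in the knockouts and 89.9% in both controls.

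The largest loss over all member ends was at an end of Kcne1, the partner of Kcnq1 in the cardiac slow current. This end, whose side was not assigned, had 25.7% and 30.5% in the knockouts, against 80.5% and 83.7% in the controls (-54.0 points; log2 odds -3.47 ± 0.36, SE; adjusted p = 8.9e-08 by limma, n = 2 per group). The 5 far ends that were not called were not highly methylated in controls: those of Kcnk4, Kcnk12, Kcnk15, Kcna3 and Kcnn1, with control means between 1.44% and 24.9%. Of 10 unassigned ends, 6 were called lower, against 1750 of 2413 over all autosomal genes.

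Around the outermost gene end on the start side, in genes with a RefSeq strand, the mean level of potassium channel genes lay below that of all genes over the first 5 kb inside. In the first kb inside, the mean over 66 members was 12.4% and 12.8% in the knockouts, against 23.3% and 25.0% in the controls, and over 15890 genes it averaged 15.1% in knockouts and 27.6% in controls. Between 2 and 3 kb inside, 67 members had 31.5% and 31.1% in the knockouts, against 57.7% and 61.7% in the controls, while all genes averaged 40.3% in knockouts and 75.5% in controls. From 5 to 6 kb on, members and all genes were within a few points in both groups. This comparison is a description of means and was not tested.

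**Figure D4:**
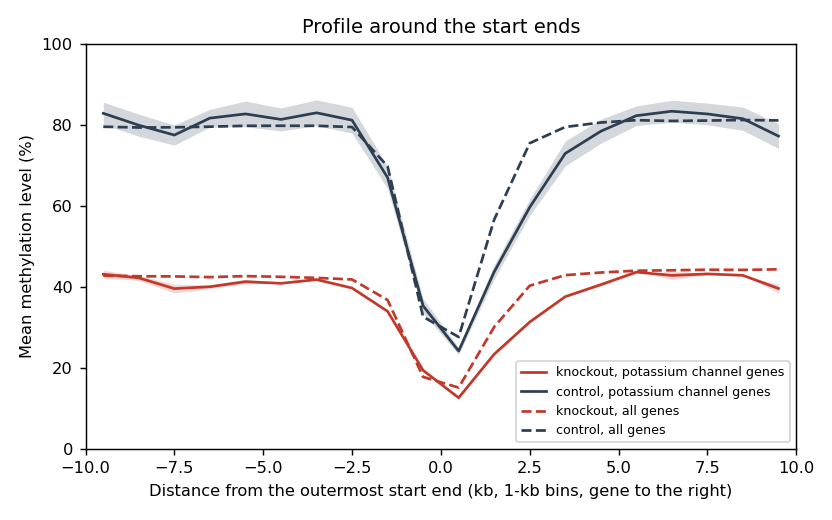
Mean methylation (%) in 1-kb bins from 10 kb outside to 10 kb inside the outermost start end, for knockouts (red) and controls (dark); solid lines are potassium channel genes, with shading between the 2 samples of a group, and dashed lines all genes. The solid lines stay below the dashed ones from 0 to 5 kb inside, with 31.3% in knockouts and 59.7% in controls at 2 to 3 kb, against 40.3% and 75.5% over all genes.

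Windows of 1 kb showed where inside the genes the levels departed from that of the body. Of 5024 distinct windows in members, limma called 4699 lower and 11 higher, against 92.1% and 0.176% of 1136400 windows. The 4247 windows at 80% or more in controls had medians of 46.4% in knockouts and 89.9% in controls, and 4245 of them were called lower. Among the 269 windows under 20% in controls, 11 were called higher and 3 lower. The background for windows under 20% in controls was 2.93% higher and 0.669% lower. All 11 higher windows therefore lay in stretches that were low in controls, in 8 genes.

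The number of higher windows varied with the library left out, as it did over all windows of the genome. Differences of named windows without 1 library are given below. With each window tested on its own spread alone, 4 member windows were called higher, against 492 of all 1136400 windows.

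The largest gain was in Kcnc2, a fast delayed rectifier of interneurons, at chr10:112455001-112456000. This window had 29.8% and 23.5% in the knockouts, against 7.74% and 12.4% in the controls (16.6 points; log2 odds 1.63 ± 0.36, SE; adjusted p = 3.1e-05 by limma, n = 2 per group). The next window of Kcnc2 had 25.5% and 18.3% in the knockouts, against 12.8% and 8.80% in the controls (11.1 points). The first of them lies 185103 bp and 10304 bp from the gene's ends.

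Kcnq5 had a window at chr1:21505001-21506000 with 16.7% and 21.3% in the knockouts, against 4.5002% and 4.58% in the controls (14.5 points), and another at chr1:21512001-21513000 with 27.7% and 22.5% in the knockouts, against 12.5% and 12.6% in the controls (12.6 points). In Kcnj6, a G-protein-gated inward rectifier, a window at chr16:94798001-94799000 had 17.4% and 15.3% in the knockouts, against 4.85% and 5.90% in the controls (10.98 points). All these windows are well inside long genes. Leaving out 1 library kept the first windows of Kcnc2 and Kcnq5 above 10 points (13.4 to 19.7 and 12.2 to 16.8). The second windows of both genes and the Kcnj6 window fell below it at least once, with lowest differences of 7.55, 9.99 and 9.90 points.

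**Figure D5:**
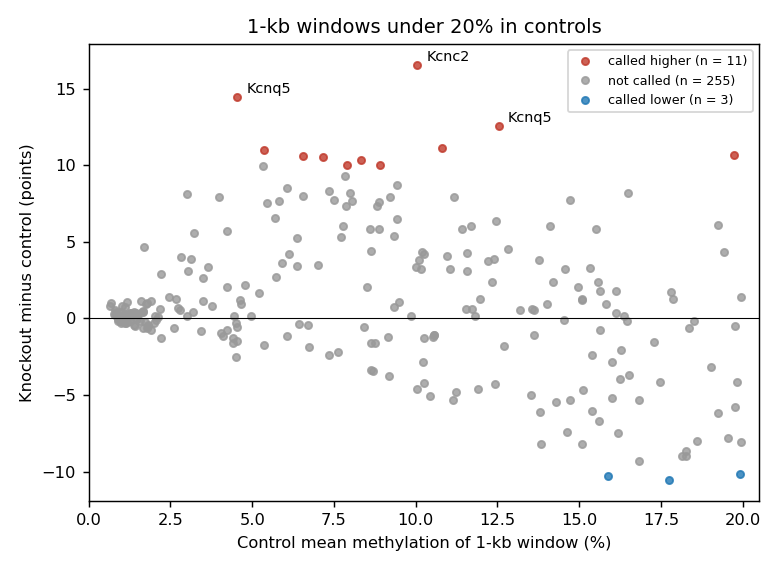
Knockout minus control difference (percentage points) against the control mean (%) for the 269 windows of 1 kb in members under 20% in controls; red points are called higher (11), blue lower (3), grey not called. The largest gains, in Kcnc2 and Kcnq5, reach 16.6 and 14.5 points.

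Of the 4357 member windows more than 5 kb from both gene ends, 122 were under 20% in controls, in 41 of 68 members with such windows. Kcnj6 had 10 of them, Kcnk2 had 9, and Kcnip1, Kcnip4 and Kcnb2 had 8 each. The lowest, in Kcnj3, a cardiac G-protein-gated rectifier, had 1.35% and 1.57% in the knockouts, against 0.780% and 0.537% in the controls. The Kcna2 window had 1.15% and 0.904% in the knockouts and 0.838% and 0.751% in the controls, and that of Kcnk2 had 1.03% and 1.19% in the knockouts and 0.890% and 0.954% in the controls. Kcnip3 had 0.906% and 0.513% in the knockouts, against 1.07% and 0.882% in the controls. The Kcna2, Kcnk2 and Kcnip3 windows hold inner start sites listed by RefSeq, and none of these 4 windows was called.

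Kcnq1 hosts the start of Kcnq1ot1, which is methylated on the maternal copy in body cells and not in sperm. The window at chr7:143295001-143296000 had 9.88% and 12.3% in the knockouts, against 3.13% and 2.86% in the controls, a difference of 8.10 points over 62 CpGs (adjusted p = 6.8e-07 by limma, n = 2 per group), under the 10 points needed for a call. The next window had 9.13% and 7.74% in the knockouts, against 6.96% and 4.47% in the controls (2.72 points). The Kcnq1 body as a whole was lower by 36.5 points, so both windows went against the body mean. They were named after their values were seen.

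Genes that work with potassium channels under other symbols were measured in the same way. Of 19 listed subunits and partners, 18 had a measured body and all 18 were called lower, with a median difference of -39.0 points, against 96.9% of all bodies. Of their 18 measured start ends, 3 were called lower and 0 higher, against 25.6% and 0.272% of all start ends. The lower ones were those of Dpp10, a partner of Kcnd pores, and of Lrrc38 and Lrrc52, auxiliary subunits of large-conductance channels. Lrrc52 had 31.3% and 34.9% at its start in the knockouts, against 77.1% and 87.3% in the controls (-49.1 points). At an unadjusted p under 0.05, 1 of these start ends was higher, against 736 of 17124 over all autosomal genes. Voltage-gated sodium and calcium channel genes (Scn and Cacn symbols) had 39 of 39 bodies and 10 of 35 start ends called lower, with a median body difference of -37.7 points, close to that of the potassium channel genes, and these shares too stood against 96.9% of bodies and 25.6% of start ends.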

How the data were processed

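DNA methylation was measured by post-bisulfite adaptor tagging (PBAT) sequencing of germ cell DNA from 2 knockout and 2 control samples. The deposited file gives, for each cytosine of a CpG, the percent of reads that were methylated in each sample, on mm10 per the submitters' processing notes, and its title names a minimum of 10 reads. The software for alignment and methylation calling is not given in the sources used here. Read depth per cytosine is unknown, so no counting interval was computed, and 0 columns of sample values were left out.

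Cytosines with a value in all 4 samples were averaged without weights over gene bodies, gene ends and 1-kb windows (at least 10, 5 and 5 CpGs). Gene and start positions came from RefSeq annotation of GRCm38.p6. Limma 3.58.1 in R 4.3.3, with a trended robust prior, compared knockouts with controls on the log2 odds of the fraction, offset by 0.01, with p-values adjusted over all regions of a kind. Each region has 2 residual degrees of freedom, and the test leans on the spread shared across regions. Other steps used data.table (1.17.8), Python 3.11.15, NumPy 2.4.6, pandas 2.3.3 and Matplotlib 3.10.9.

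The members and gene lists were chosen with earlier results of these data known. Genes named in the text are the bodies with the 5 largest and 5 smallest losses, the 3 longest, the 6 ends with the largest loss, up to 8 methylated start ends, 5 windows with the largest gain and the 5 lowest, and a fixed set (Kcnu1, Kcnq1, Kcnk9, Kcnma1, Kcna1, Kcnj11, Kcnn4, Kcnk3 and Kcnip1). Other genes are said to be named after their values were seen, or were picked as examples of a sequence or a count. Some items that the rule names are not reported here.

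The test was tried on simulated data with 50 planted losses of each size. Losses of 20 points were recovered at 98% over 15776 bodies, 60% over 34911 ends and 20% over 1136400 windows, and losses of 10 points at 40%, 4% and 2%. The losses were planted in regions above 50% in controls, and all other regions were left unchanged, unlike in the samples. A planted loss of 10 points also lies on the minimum needed for a call. These rates therefore do not describe small differences at low ends or windows. Alternatives changed the transformation, the spread, the minimum difference, the CpG minimum, the cytosines used, the centring, the trimming or reach of a region, the replicate block and the samples, leaving out each in turn.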

Additional observations from a re-analysis of the deposited data

How the results depend on the processing

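Of the counts and medians, 75 values under the alternatives stayed close to those reported, while 10 were weaker, 8 stronger and 3 otherwise moved. Without a minimum difference 4 member ends and 48 windows were called higher, against 823 of all 34911 ends and 10858 of all 1136400 windows. With at least 20 points 0 member windows were higher, against 21 of all windows. On each region's own spread alone 28 ends were called lower and 4 windows higher, against 7764 of all 34911 ends and 492 of all 1136400 windows. With each sample's own cytosines 4 windows were higher, against 1704 of all 1258692 windows. With a doubled CpG minimum 1826 windows were called lower, of fewer tested, against 420616 of all 493179 windows. The median difference of ends was then -11.8 points. That median was -22.4 points for ends reaching 500 bp outside the gene, and the median of bodies was -30.3 points with no trimming, which adds the low gene starts.

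Leaving out 1 sample changed the number of ends and windows called higher, among members and over all regions alike. The start of Kcna1 then ranged from -0.186 to 0.0193 points and that of Kcnk9 from -0.0899 to 0.119 points, so both changed sign around 0. They also did with ends reaching 500 bp (0.412 for Kcna1, -0.298 for Kcnk9), as did Kcnk3 (0.728), and Kcnk9 was at -1.47 with 2000 bp. Calls at ends that were lost or gained without 1 sample included Kcnmb4 (-9.36 points without control replicate 2, -9.32 without knockout replicate 2), Kcnip2 (-10.8, gained without control replicate 1) and Kcnj13 (-17.1 without knockout replicate 1).

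Centring every sample on its median removes the shift common to all regions. In that fit 0 member bodies were called lower and 18 higher, against 56 and 2098 of all 15776 bodies. For ends the counts were 62 lower and 77 higher, against 9417 and 15949 of all 34911 ends. For windows they were 54 lower and 563 higher, against 9677 and 178124 of all 1136400 windows. For single regions, the median difference of their kind was subtracted: -37.8 points for bodies, -30.0 for ends and -40.6 for windows. A body such as Kcns1, with a control mean of 9.20%, cannot lose 37.8 points. A positive value here is therefore not a gain in methylation. Differences then changed sign at bodies that lost fewer points than the median: Kcns1 35.7, Kcnf1 33.9, Kcnj9 29.3, Kcna1 28.8, Kcng4 28.3, Kcnn4 22.6, Kcnk9 12.5, Kcnu1 6.71, Kcnk3 5.51, Kcnq1 1.31 and Kcnq5 0.538 points. At ends they were 29.9 for Kcna1, 29.6 for Kcnk3, 29.4 for Kcnma1, 27.1 for Kcnq1, 25.2 for Kcnj11, 14.0 for Kcnip1, and 3.77 and 13.0 for the start and far end of Kcnn4. The Kcnip3 window was at 40.3 points.

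With the replicate block, 80 member bodies and 99 ends were called lower, against 15290 of all 15776 bodies and 20029 of all 34911 ends. For member windows 4702 were lower and 11 higher, against 1047859 and 2070 of all 1136400 windows. Samples with the same number share only that number: the correlation of their deviations was 0.0756 over all bodies and 0.0777 over all ends, and 0.0448 over the members' bodies and 0.177 over their ends. The depth behind a value is unknown. Differences under 10 points could not be called by rule, and how often small gains at low ends and windows go undetected was not tested.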
